A study of Mus musculus with 19 samples.

Results

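The gastrocnemius of tumour-bearing, vehicle-injected mice was compared with that of mice without a tumour, gene by gene, in 14 of the 19 RNA libraries of the study. The 7 C26 vehicle libraries came from male Balb/c mice that were 2 months old when C26 cells were injected subcutaneously in the right flank, and that then received vehicle, dilute ethanol in saline, intraperitoneally from day 4 onward. The 7 control libraries came from mice without a tumour, whose age, sex, strain and injections are not stated separately, so the tumour cannot be told apart from vehicle injection or from a difference in those traits. C26 cells derive from a mouse colon adenocarcinoma and grow into tumours that waste the muscle and fat of their hosts. The remaining 5 libraries, from C26 mice given rolipram, entered the fit only to help estimate the spread. Samples carry a number in the labels, but whether each is its own animal is not stated, and p-values cover only the spread between the sampled libraries.

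Skeletal muscle buffers its ATP with creatine kinase, adenylate kinase and AMP deaminase, transmits force through a membrane skeleton that ties the contractile lattice to the extracellular matrix, and reads calcium through calmodulin, calcineurin and the MEF2 and NFAT factors. Its many nuclei per fibre share a cytoplasm that is ordered by microtubules. In cachexia, as in fasting or disuse, fibres lose protein mass while the rest of this machinery is remodelled. The gene lists described here were chosen outside the proteolysis, respiratory chain and inflammation programmes that are best known for this model. Some of their members border on those programmes, and the largest changes over all genes include known wasting and inflammation genes.

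Levels are in RPKM, reads per kilobase of transcript per M (mega) reads, computed by the authors. Where levels are given below, they are the lowest, the median and the highest of the 7 libraries of a group. Changes are C26 vehicle minus control on the log2(RPKM + 1) scale with the standard error (SE) from limma, and a gene is said to have risen or fallen where its adjusted p was below 0.05. Of 11141 genes tested, 43.3% were higher and 23.8% were lower by this rule, 8.91% were higher and 4.7% lower by at least 2-fold, and 67% were called in either direction. The median change of all genes was 0.15. It became 0.00 after median-of-ratios scaling and 0.02 after quantile normalisation, which also moved the share of calls that were higher to 50.6% and 51.6%, against 64.6% as deposited. Rescaled counts in brackets behind a list are those after median-of-ratios scaling and then after quantile normalisation, with the directions in the same order as before the bracket. Over all 11141 tested genes those counts were 3745 higher and 3658 lower, then 3841 higher and 3602 lower. Library sizes estimated from the deposited values were 26.8 ± 9.36 M reads in C26 vehicle and 20.2 ± 1.91 M reads in control libraries (SD, n = 7 each). C26 vehicle 3 stood apart as the deepest library, at 45.9 M reads, and as the farthest from the controls on the first principal component, where C26 vehicle libraries ran from 8.93 (C26 vehicle 7) to 57.6 (C26 vehicle 3) and control libraries from -50.3 to -42.3. Genes named by rule kept their call and direction without any single library and under both other scalings, and their 7 and 7 libraries did not overlap, which 26.9% (C26 vehicle above) and 12.2% (C26 vehicle below) of all tested genes showed. That separation is thus part of how these genes were chosen. Where no remark is made, up to 25.5% of a named gene's exon bases lay under a gene on the other strand, and reads of such pairs could not be told apart without the strand setting of the counting.

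The tissue was muscle in both groups by its markers. The summed level of 12 fibre markers ran from 53925 to 85242 RPKM in C26 vehicle libraries and from 83757 to 107090.0 RPKM in control libraries, and 6 of the 12 were lower and 0 higher. After quantile normalisation 4 were higher and 3 lower, and after median-of-ratios scaling 0 were higher and 9 lower. Markers of other cells moved as well, and fewer cells of a type and less RNA per cell cannot be told apart in whole muscle. Of 6 tested tendon-cell markers 5 fell (median change -1.80), among them Tnmd, which encodes tenomodulin. The mean of these markers, relative to the control mean, ran from -2.29 to -0.74 (C26 vehicle 7) in C26 vehicle libraries and from -0.45 to 0.41 in control libraries. Of 8 markers of fibro-adipogenic progenitors 4 fell and 1 rose. Their mean overlapped between the groups, from -1.16 to 0.55 in C26 vehicle and from -0.67 to 0.36 in control libraries. It was 0.06 in C26 vehicle 6 and 0.55 in C26 vehicle 7, so the fall was not shared by all C26 vehicle libraries. Of 7 tested macrophage markers 6 rose and 0 fell, with sums of 70.2 to 192 RPKM in C26 vehicle libraries and from 24.9 to 115 RPKM in control libraries, and 5 of 5 red-cell markers rose, with sums of 309.9 to 1012 RPKM in C26 vehicle libraries and from 90.6 to 246 RPKM in control libraries. Of the neutrophil markers 2 of 2 tested rose. The other lists were mixed, with 1 higher and 3 lower of 7 for smooth muscle and pericytes, 1 and 2 of 7 for Schwann cells, 2 and 1 of 8 for endothelium, 1 and 1 of 8 for adipocytes and 2 and 1 of 4 for satellite cells. The mean of the adipocyte markers varied widely, from -1.02 (C26 vehicle 3) to 1.78 (C26 vehicle 7) in C26 vehicle libraries. In control libraries it ran from -0.54 to 0.97 (control 7). Lymphocyte markers were not analysed here. The part of these cells in the results below was not tested.

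**Figure D1:**
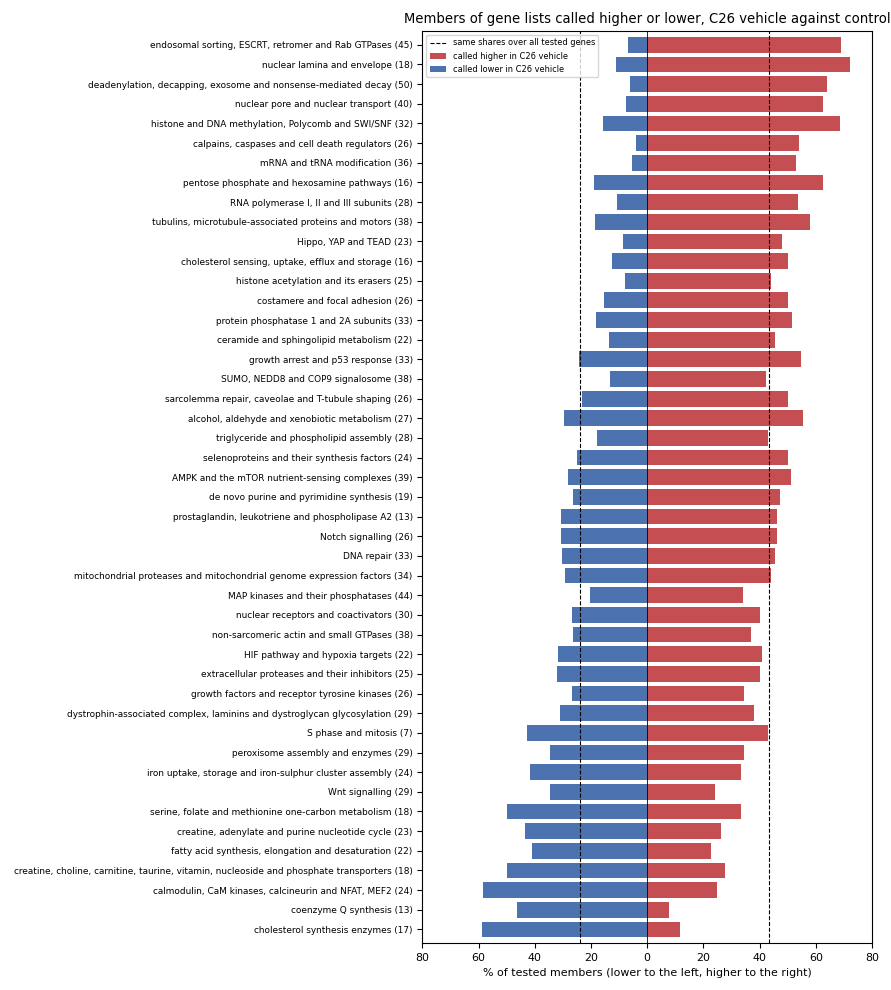
Bars give the percentage of tested members of each gene list that were called higher (red, to the right) or lower (blue, to the left) in C26 vehicle than in control muscle, with the number of tested members in brackets. Dashed lines mark the shares over all tested genes, 43.3% and 23.8%, and lists on endosomes, the nuclear envelope and RNA decay lie at the top while cholesterol and coenzyme Q synthesis and calcium-calmodulin signalling lie at the bottom.

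Lipid metabolism came first. Of the cholesterol synthesis enzymes 10 of 17 tested members were lower and 2 higher (median -0.39), and both counts were the same after either other scaling. Dhcr7, the reductase of the last step of the pathway (chr7:143823145-143848410, plus strand in GRCm38), had 0.326, 0.567 and 0.832 RPKM in C26 vehicle libraries and 2.43, 2.69 and 3.57 RPKM in control libraries. The highest C26 vehicle library, number 6, lay below every control, with a log2 change of -1.33 ± 0.11 (adjusted p = 2.0e-09). The early enzyme Mvk, mevalonate kinase, fell by 0.84 ± 0.10, and the sterol reductases Tm7sf2 and Hsd17b7 fell by 0.82 ± 0.07 and 0.75 ± 0.11. Fdft1, the squalene synthase that commits the pathway to sterols, went the other way, with 27.9, 56.6 and 82.0 RPKM in C26 vehicle libraries and 12.8, 15.7 and 22.0 RPKM in control libraries. Its lowest library was C26 vehicle 7 and its highest C26 vehicle 3, and it gave a log2 change of 1.6 ± 0.20 (adjusted p = 8.0e-07). The sterol isomerase gene Ebp rose by 0.74 ± 0.11. With Fdft1 included, the summed level of the list ran from 78.3 to 115 RPKM in C26 vehicle libraries and from 69.4 to 79.3 RPKM in control libraries. Srebf2, the factor that drives the pathway, was looked at after its values were seen. It changed by -0.22 ± 0.10 (adjusted p = 0.068) and passed as lower after median-of-ratios scaling and quantile normalisation, at -0.36 and -0.33.

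Npc1, which exports cholesterol from lysosomes, had 19.4, 43.8 and 54.7 RPKM in C26 vehicle libraries and 2.72, 3.13 and 4.17 RPKM in control libraries. Every C26 vehicle library was above the highest control, with number 7 the lowest, and the change was 3.26 ± 0.20 (adjusted p = 5.2e-11). The oxysterol receptor genes Nr1h2 and Nr1h3 rose by 1.42 ± 0.12 and 0.94 ± 0.10, and Scarb1 rose by 1.09 ± 0.12, which encodes the receptor for high-density lipoprotein. Insig2, whose product holds the sterol sensor in the endoplasmic reticulum, fell by 0.54 ± 0.09. Over the cholesterol handling list 8 of 16 tested members were higher and 2 lower (rescaled, 8 and 4, then 8 and 3). The list mean per library, relative to the control mean, ran from 0.37 to 0.69 in C26 vehicle libraries and from -0.21 to 0.32 in control libraries, with C26 vehicle 7 the highest and all 7 above every control.

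Fatty acid synthesis and elongation gave 9 of 22 tested members lower and 5 higher (rescaled, 11 and 3, then 11 and 4). In each group the means of this list, of cholesterol handling and of the adipocyte markers were highest in library 7. The part of fat cells in these lists was not tested. Srebf1, the main lipogenic factor, fell by 1.06 ± 0.11, Mlxipl, which encodes the carbohydrate-sensing factor ChREBP, fell by 0.50 ± 0.13, and the muscle-enriched elongation dehydratase gene Hacd1 fell by 1.46 ± 0.19. Acacb, whose product makes the malonyl-CoA that restrains fatty acid entry into mitochondria, rose by 1.27 ± 0.16. In glycerolipid assembly the first acyltransferase gene Gpam fell by 1.43 ± 0.28 and the final choline phosphotransferase gene Chpt1 fell by 0.71 ± 0.09. All 3 lipins, the phosphatidate phosphatases in the middle of the pathway, moved up. Lpin1 had 119.8, 148 and 155 RPKM in C26 vehicle libraries and 39.6, 41.2 and 46.0 RPKM in control libraries, 7 closely grouped values in each group, with a log2 change of 1.70 ± 0.15 (adjusted p = 7.4e-09). Lpin2 and Lpin3 rose by 1.22 ± 0.20 and 0.77 ± 0.10 from much lower levels. Counts over the whole assembly list were close to those of all genes, with 12 of 28 tested members higher and 5 lower (rescaled, 11 and 7, then 10 and 9).

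Genes of ceramide metabolism moved in both directions. Cers1, the ceramide synthase typical of skeletal muscle, had 0.160, 0.548 and 1.23 RPKM in C26 vehicle libraries and 3.41, 4.73 and 5.87 RPKM in control libraries. Its C26 vehicle libraries were all below the lowest control and the change was -1.79 ± 0.17 (adjusted p = 1.5e-08). Of its exon bases 42.5% overlap another gene on the same strand, so their reads could be mixed. The ceramidase gene Acer2 had 6.35, 7.93 and 9.49 RPKM in C26 vehicle libraries and 0.847, 1.56 and 2.13 RPKM in control libraries, with no library of either group in between, and a log2 change of 1.88 ± 0.13 (adjusted p = 3.5e-10). Genes that turn ceramide into sphingomyelin (Sgms1 rose by 1.15 ± 0.08), glucosylceramide (Ugcg rose by 1.10 ± 0.13) and, after deacylation, sphingosine 1-phosphate (Sphk2 rose by 0.95 ± 0.08) were higher. Ormdl1, whose product restrains the first enzyme of the pathway, fell by 0.90 ± 0.12. Over the list 10 of 22 tested members were higher and 3 lower (rescaled, 9 and 5, then 9 and 5), close to the shares of all genes.

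Of the genes that buffer energy through phosphagens and adenylates 10 of 23 tested members were lower and 6 higher (median -0.26, and rescaled, 14 and 6, then 14 and 7). Of the 23 tested members 7 fell by at least 2-fold, against 4.7% of all tested genes. Ckmt2, the mitochondrial creatine kinase of muscle (chr13:91853387-91876885, minus strand), had 106, 264 and 615 RPKM in C26 vehicle libraries and 967, 1100.1 and 1521 RPKM in control libraries. C26 vehicle 3 was the lowest and C26 vehicle 6 the highest of a group that stayed below all controls, with a log2 change of -2.03 ± 0.28 (adjusted p = 2.5e-06). Ak1, the adenylate kinase of the cytosol, had 39.5, 130.0 and 266 RPKM in C26 vehicle libraries and 573, 657 and 733 RPKM in control libraries, with a log2 change of -2.19 ± 0.29 (adjusted p = 1.7e-06). The list mean ran from -0.66 to -0.00 in C26 vehicle libraries, lowest in number 3 and highest in number 7, and from -0.10 to 0.08 in controls, so that the C26 vehicle libraries varied more than the controls and reached their range.

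The AMP deaminase isoforms moved in opposite directions. Ampd1, the AMP deaminase characteristic of skeletal muscle, had 27.4, 52.9 and 178 RPKM in C26 vehicle libraries and 245, 284 and 325 RPKM in control libraries. Its values were lowest in C26 vehicle 3 and highest in C26 vehicle 7, and it gave a log2 change of -2.06 ± 0.35 (adjusted p = 3.4e-05). Ampd3, the isoform known from red cells (chr7:110768206-110812405, plus strand), had 17.4, 39.2 and 82.3 RPKM in C26 vehicle libraries and 2.57, 4.09 and 4.63 RPKM in control libraries, and was highest in C26 vehicle 3 and lowest in C26 vehicle 7. It gave a log2 change of 3.17 ± 0.28 (adjusted p = 7.4e-09). Red-cell markers were higher in the same libraries, as given above, and their part in the rise of Ampd3 was not tested. Nt5c1a, which encodes the nucleotidase that removes phosphate from AMP in muscle, fell by 2.29 ± 0.29. Xdh, which encodes xanthine dehydrogenase, the enzyme that forms uric acid at the end of purine breakdown, had 20.1, 30.1 and 36.5 RPKM in C26 vehicle libraries and 5.14, 6.10 and 10.4 RPKM in control libraries, with no overlap and a log2 change of 1.92 ± 0.21 (adjusted p = 1.2e-07).

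Nucleotide and one-carbon synthesis moved in both directions. In de novo purine synthesis the first committed enzyme gene Ppat fell by 1.03 ± 0.09, while Impdh2, at the branch to guanine nucleotides, rose by 1.43 ± 0.12. On the pyrimidine side, the dihydroorotate dehydrogenase gene Dhodh fell by 0.94 ± 0.10, the CTP synthase gene Ctps2 rose by 2.06 ± 0.15 and the uridine kinase gene Uck2 rose by 0.94 ± 0.19. Over the nucleotide list 9 of 19 tested members were higher and 5 lower (rescaled, 9 and 7, then 8 and 7). In serine, folate and methionine metabolism 9 of 18 tested members were lower and 6 higher (rescaled, 10 and 4, then 10 and 5). Psph, which encodes the last enzyme of serine synthesis, fell by 1.10 ± 0.16, Mat2a, which encodes the enzyme that makes S-adenosylmethionine, fell by 0.91 ± 0.16, and Shmt1 fell by 0.62 ± 0.16, whereas Mtr, of the methyl branch of the folate cycle, rose by 0.55 ± 0.12. In the pentose phosphate and hexosamine list 10 of 16 tested members were higher and 3 lower (rescaled, 8 and 5, then 8 and 4). Gfpt2, a gatekeeper of hexosamine synthesis, rose by 1.35 ± 0.17, Oga, whose product removes the O-GlcNAc sugar from proteins, rose by 1.21 ± 0.08, and Pgd rose by 1.10 ± 0.10, an enzyme of the oxidative pentose branch, while the isomerase gene Rpia fell by 0.86 ± 0.12.

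Iron handling held the steepest fall among the named genes of the metabolic lists. Tfrc, the transferrin receptor through which cells take up iron (chr16:32608920-32632794, plus strand), had 1.52, 1.98 and 3.61 RPKM in C26 vehicle libraries and 24.4, 37.8 and 42.5 RPKM in control libraries. The C26 vehicle libraries all lay far below the lowest control, number 5, with a log2 change of -3.53 ± 0.17 (adjusted p = 2.1e-12). Hjv, a bone morphogenetic protein co-receptor known for its control of hepcidin in the liver and abundant in muscle, fell by 1.74 ± 0.26. Hmox1, the haem oxygenase that frees iron from haem, had 13.4, 24.0 and 29.0 RPKM in C26 vehicle libraries and 3.35, 3.89 and 4.42 RPKM in control libraries, with a log2 change of 2.15 ± 0.14 (adjusted p = 1.0e-10). Ftl1, the ferritin light chain, rose by 1.39 ± 0.12, but 26.5% of its exon bases overlap a gene on the other strand, and processed copies of this gene could share its reads. The iron-sulphur assembly genes Isca1 and Nfs1 fell by 0.72 ± 0.09 and 0.40 ± 0.10. Over the list 10 of 24 tested members were lower and 8 higher (rescaled, 14 and 6, then 14 and 6). Macrophage and red-cell markers rose in the same libraries and their part in the iron genes was not tested.

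In the coenzyme Q list 6 of 13 tested members were lower and 1 higher (median -0.31, and rescaled, 10 and 1, then 10 and 1). Coenzyme Q carries electrons between respiratory complexes, and its synthesis runs from a polyprenyl tail to a series of ring modifications. The tail synthase genes Pdss1 and Pdss2 fell by 1.12 ± 0.10 and 0.98 ± 0.13. Coq7, a hydroxylase of the ring, had 2.95, 6.77 and 13.4 RPKM in C26 vehicle libraries and 29.9, 31.6 and 37.0 RPKM in control libraries. The groups were apart in all libraries and C26 vehicle 3 was the lowest, with a log2 change of -1.98 ± 0.23 (adjusted p = 3.0e-07). Coq9, the partner of COQ7, fell by 0.52 ± 0.10, and the atypical kinase gene Coq8b rose by 1.37 ± 0.22. Mitochondrial quality control was mixed, with 15 of 34 tested members higher and 10 lower (rescaled, 7 and 13, then 7 and 17). Both parts of the ClpXP matrix protease rose, Clpp by 1.11 ± 0.14 and Clpx by 0.71 ± 0.10, as did Afg3l2 of the inner membrane by 0.99 ± 0.14, while the prohibitin gene Phb fell by 1.06 ± 0.11 and Mterf2, of the transcription machinery of the mitochondrial genome, fell by 1.63 ± 0.19.

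Peroxisomal genes gave 10 of 29 tested members higher and 10 lower (rescaled, 9 and 15, then 7 and 16). The import peroxins Pex13 and Pex6 rose by 0.97 ± 0.13 and 0.85 ± 0.11. Abcd2, the carrier of very long fatty acids, had 0.654, 1.56 and 4.75 RPKM in C26 vehicle libraries and 10, 10.7 and 12.1 RPKM in control libraries and fell by 2.08 ± 0.20, and Pex11a, which divides peroxisomes, fell by 1.41 ± 0.24. Among selenoproteins and their synthesis factors 12 of 24 tested members were higher and 6 lower (rescaled, 10 and 9, then 10 and 8). Gpx3, the secreted glutathione peroxidase, had 619, 792 and 999 RPKM in C26 vehicle libraries and 85.5, 128 and 184 RPKM in control libraries, with no library in between the groups and a log2 change of 2.59 ± 0.16 (adjusted p = 8.1e-11). Secisbp2 and Trnau1ap, which read selenocysteine codons, rose by 1.32 ± 0.09 and 1.35 ± 0.13, while the kinase gene Pstk fell by 0.95 ± 0.14, though 58.8% of its exon bases overlap a gene on the other strand. In alcohol, aldehyde and xenobiotic metabolism 15 of 27 tested members were higher and 8 lower (rescaled, 13 and 9, then 13 and 9), with rises in the sulphotransferase gene Sult1a1 (1.63 ± 0.17), the flavin monooxygenase gene Fmo2 (1.32 ± 0.21) and the cytochrome reductase gene Por (1.21 ± 0.17) and a fall in the aldo-keto reductase gene Akr1b10 (-1.86 ± 0.21).

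Among transporters 9 of 18 tested members were lower and 5 higher (rescaled, 11 and 5, then 10 and 5), and the 2 falls of at least 2-fold were steep. Slc37a4, the glucose-6-phosphate carrier of the endoplasmic reticulum, had 3.18, 5.76 and 7.00 RPKM in C26 vehicle libraries and 47.9, 63.5 and 71.7 RPKM in control libraries. The change was uniform over the 7 libraries, with a log2 change of -3.36 ± 0.13 (adjusted p = 6.6e-14). Slc41a3, of a family of magnesium transporters, had 2.64, 3.72 and 6.60 RPKM in C26 vehicle libraries and 27.8, 35.4 and 38.3 RPKM in control libraries, with a log2 change of -2.80 ± 0.15 (adjusted p = 5.2e-12). The phosphate transporter gene Slc20a1 rose by 0.92 ± 0.12.

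**Figure D2:**
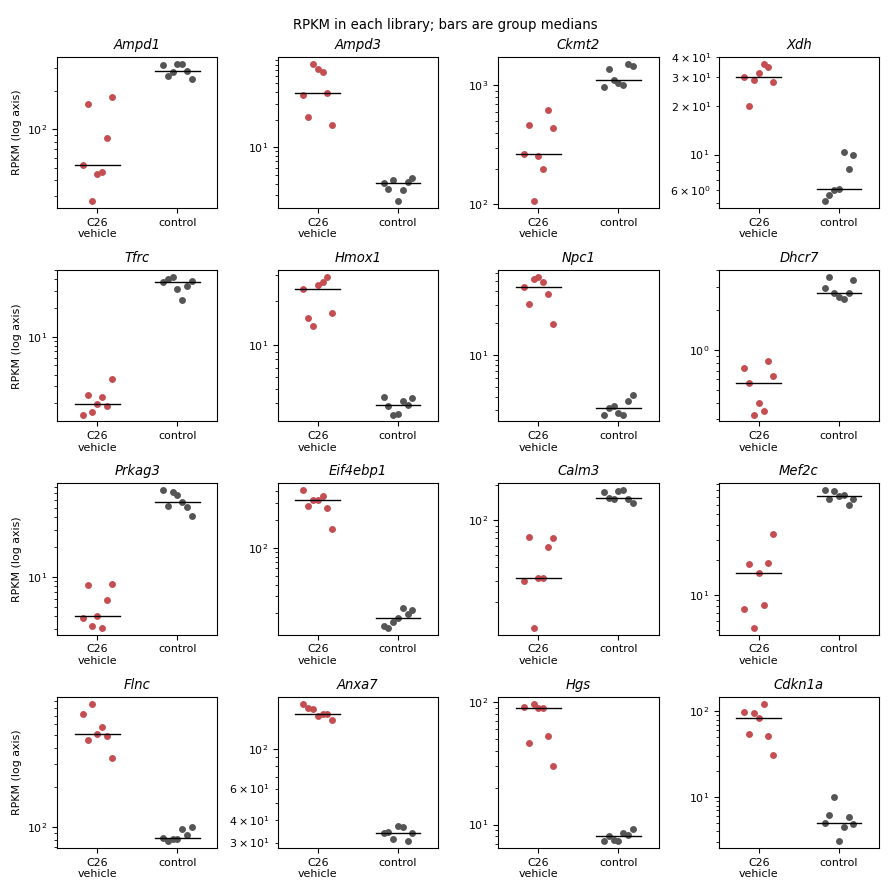
RPKM on a log axis in each C26 vehicle library (red, left) and each control library (grey, right) for 16 genes, with bars at the group medians. No red point overlaps a grey one, as the choice of these genes required, and red points of Ampd1, Ckmt2, Calm3 and Mef2c spread more widely than grey ones.

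In the costamere and focal adhesion list 13 of 26 tested members were higher and 4 lower (rescaled, 11 and 10, then 10 and 10), with 5 rises of at least 2-fold (8.91% of all genes). Flnc, the muscle filamin of the Z-disc and sarcolemma (chr6:29433256-29461883, plus strand), had 336, 504 and 863 RPKM in C26 vehicle libraries and 77.9, 82.3 and 101 RPKM in control libraries. C26 vehicle 3 was the highest and number 7 the lowest, with a log2 change of 2.63 ± 0.16 (adjusted p = 6.9e-11). The vinculin-binding adaptor gene Sorbs3 rose by 1.62 ± 0.17 and the paxillin gene Pxn rose by 1.09 ± 0.10, but Sorbs2 of the same family fell by 1.12 ± 0.22. Itgb1bp2, which encodes melusin, a muscle protein that binds beta-1 integrin, had 6.38, 15.3 and 49.7 RPKM in C26 vehicle libraries and 88.6, 109 and 117 RPKM in control libraries, with a log2 change of -2.40 ± 0.36 (adjusted p = 6.7e-06).

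The dystrophin-associated complex itself gave 11 of 29 tested members higher and 9 lower (rescaled, 7 and 11, then 7 and 13) and a median of 0.00. Dag1, the dystroglycan that spans the membrane, rose by 1.04 ± 0.14 and Dmd, dystrophin, rose by 0.86 ± 0.15, with 11.2, 15.7 and 22.0 RPKM in C26 vehicle libraries and 7.21, 8.0 and 11.1 RPKM in control libraries. Sarcospan (Sspn fell by 0.97 ± 0.17) and Pomk, a kinase that modifies the sugar chain of dystroglycan (fell by 1.25 ± 0.12), were lower. Membrane repair genes gave 13 of 26 tested members higher and 6 lower (rescaled, 11 and 8, then 10 and 9). Anxa7, a calcium-dependent membrane-binding annexin (chr14:20455260-20480133, minus strand), had 145, 156 and 178 RPKM in C26 vehicle libraries and 30.5, 33.8 and 37.0 RPKM in control libraries, 2 narrow and separate groups, with a log2 change of 2.21 ± 0.09 (adjusted p = 6.5e-14). Anxa4 and Anxa6 of the same family rose by 1.88 ± 0.10 and 1.46 ± 0.07, and Ehd3, of a family of membrane-shaping ATPases, rose by 1.40 ± 0.17.

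Microtubule genes gave 22 of 38 tested members higher and 7 lower (rescaled, 16 and 11, then 14 and 10). Tubb4b, a beta-tubulin, had 186, 288 and 456 RPKM in C26 vehicle libraries and 73.9, 98.3 and 118 RPKM in control libraries, with a log2 change of 1.73 ± 0.16 (adjusted p = 2.0e-08). Tuba1c and Tubb6 rose by 1.72 ± 0.13 and 1.46 ± 0.22 and the heavy chain of cytoplasmic dynein, Dync1h1, by 1.46 ± 0.13, while the tubulin-binding gene Tppp3 fell by 1.45 ± 0.15 and the kinesin gene Kif1c fell by 0.44 ± 0.10. Tubulin genes are close copies of each other, so reads could be split among them. Among genes of non-sarcomeric actin and small GTPases 14 of 38 tested members were higher and 10 lower (rescaled, 13 and 11, then 11 and 12). Rhob, a stress-responsive small GTPase, rose by 1.31 ± 0.20, the Arp2/3 subunit gene Arpc3 rose by 1.21 ± 0.13 and the formin gene Diaph1 rose by 0.90 ± 0.11. Mrtfa, the actin-sensing partner of serum response factor, fell by 1.41 ± 0.10, and the cytoplasmic gamma-actin gene Actg1 fell by 0.64 ± 0.11.

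The nucleus and its RNA machinery held several of the lists with the highest shares of rises. Of nuclear lamina and envelope genes 13 of 18 tested members were higher and 2 lower (median 0.52, and rescaled, 12 and 3, then 12 and 3). Lemd2, an inner-membrane protein that binds chromatin, had 16.1, 27.6 and 38.4 RPKM in C26 vehicle libraries and 8.47, 10.4 and 12.3 RPKM in control libraries, with a log2 change of 1.27 ± 0.15 (adjusted p = 2.9e-07). Sun2 and Syne1, both of the bridge from the nucleus to the cytoskeleton, rose by 1.06 ± 0.11 and 1.08 ± 0.23, and Tor1aip1, which encodes the lamina-associated LAP1, rose by 0.98 ± 0.11. The list mean ran from 0.37 to 0.72 in C26 vehicle libraries and from -0.06 to 0.08 in controls. It was highest in C26 vehicle 3, and the next highest C26 vehicle libraries were 5 and 1. Of nuclear pore and transport genes 25 of 40 tested members were higher and 3 lower (rescaled, 21 and 6, then 19 and 7), among them the importin genes Ipo7 (1.16 ± 0.15) and Ipo5 (1.01 ± 0.14) and the pore components Ranbp2 (1.15 ± 0.16) and Nup188 (0.96 ± 0.15).

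Of the RNA decay genes 64% were higher, against 43.3% of all tested genes. The RNA modification and RNA polymerase lists lay nearer to that share, at 52.8% and 53.6%. Of the deadenylation, decapping, exosome and nonsense-mediated decay genes 32 of 50 tested members were higher and 3 lower (median 0.30, and rescaled, 22 and 7, then 20 and 7). Zfp36, the inducible factor that recruits decay enzymes to AU-rich messages, had 18.1, 21.8 and 31.4 RPKM in C26 vehicle libraries and 3.50, 6.59 and 12.3 RPKM in control libraries, with a log2 change of 1.54 ± 0.21 (adjusted p = 2.2e-06). Pabpc1, the poly(A)-binding protein of the cytoplasm, rose by 1.15 ± 0.18, the exosome subunit gene Exosc5 rose by 1.14 ± 0.14 and the decay kinase gene Smg1 rose by 1.10 ± 0.21, while Exosc7 fell by 0.40 ± 0.07. Of mRNA and tRNA modification genes 19 of 36 tested members were higher and 2 lower (rescaled, 15 and 8, then 15 and 9). Trmt1, a tRNA dimethylguanosine methyltransferase, had 25.7, 51.4 and 58.1 RPKM in C26 vehicle libraries and 10.7, 13.1 and 14.1 RPKM in control libraries, with a log2 change of 1.72 ± 0.15 (adjusted p = 6.2e-09). Trmt112, the shared activator of several methyltransferases, and Ctu2, of tRNA thiolation, rose by 1.25 ± 0.10 and 0.96 ± 0.13, with 39.1% and 47.3% of their exon bases under a gene on the other strand. Among subunits of RNA polymerases I, II and III 15 of 28 tested members were higher and 3 lower (rescaled, 12 and 5, then 10 and 8), led by Polr3d (0.99 ± 0.10), Polr3e (0.91 ± 0.08) and Polr1c (0.84 ± 0.12), with a fall of Polr3k by 0.86 ± 0.10.

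Chromatin genes for histone and DNA methylation gave 22 of 32 tested members higher and 5 lower (median 0.38, and rescaled, 17 and 5, then 17 and 5). Ezh1, the Polycomb methyltransferase of non-dividing cells, had 19.1, 29.9 and 51.5 RPKM in C26 vehicle libraries and 6.39, 7.07 and 8.90 RPKM in control libraries. C26 vehicle 3 was well above the other six C26 vehicle libraries, and without any single library the change stayed within 1.64 to 1.87, and with all libraries it was 1.78 ± 0.16 (adjusted p = 7.0e-09). Its partner gene Eed rose by 0.81 ± 0.12, and the histone methyltransferase genes Kmt2b and Setd2 rose by 0.83 ± 0.11 and 0.79 ± 0.14. The 2 falls of at least 2-fold were in muscle-specific members, Smyd1, a methyltransferase of striated muscle (fell by 1.23 ± 0.18), and Smarcd3, the SWI/SNF subunit that is used in the muscle lineage (fell by 1.42 ± 0.16, with 48.2% of its exon bases under a gene on the other strand). Histone acetylation gave 11 of 25 tested members higher and 2 lower (rescaled, 8 and 3, then 8 and 4). The coactivator genes of CREB, looked at after their values were seen, changed little: Ep300 rose by 0.45 ± 0.13, and Crebbp rose by 0.35 ± 0.10 as deposited but no longer passed after median-of-ratios scaling, at 0.21.

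Endosomal sorting had a share of rises as high as any of the larger lists. Here 31 of 45 tested members were higher and 3 lower (median 0.35, and rescaled, 25 and 5, then 22 and 8), and for 25 of the 45 every C26 vehicle library was above every control (26.9% of all genes). The list mean ran from 0.35 to 0.51 in C26 vehicle and from -0.07 to 0.07 in control libraries. Hgs, the ESCRT-0 subunit that captures ubiquitinated cargo (chr11:120467635-120483979, plus strand), had 30.1, 88.9 and 97.3 RPKM in C26 vehicle libraries and 7.31, 8.10 and 9.17 RPKM in control libraries. C26 vehicle 7, 2 and 6 were lower than the other four, and the change was 2.89 ± 0.20 (adjusted p = 3.8e-10). The annotation holds 2 entries named Hgs, and 97.2% of its exon bases overlap another entry on the same strand, so this value is uncertain. Snx5, a sorting nexin of the retrograde route, had 42.3, 62.8 and 149 RPKM in C26 vehicle libraries and 20.1, 22.8 and 24.7 RPKM in control libraries, with a log2 change of 1.67 ± 0.23 (adjusted p = 2.6e-06), and Rab11b of the recycling endosome rose by 0.87 ± 0.08. Rab4a, of fast recycling, fell by 0.63 ± 0.08. SUMO, NEDD8 and COP9 signalosome genes gave 16 of 38 tested members higher and 5 lower (rescaled, 10 and 10, then 11 and 13). The signalosome subunits Cops2 and Cops5 rose by 1.02 ± 0.16 and 0.85 ± 0.11 and the SUMO ligase gene Pias4 rose by 1.00 ± 0.13, while Dcun1d2, a NEDD8 ligase gene, fell by 0.94 ± 0.15.

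**Figure D3:**
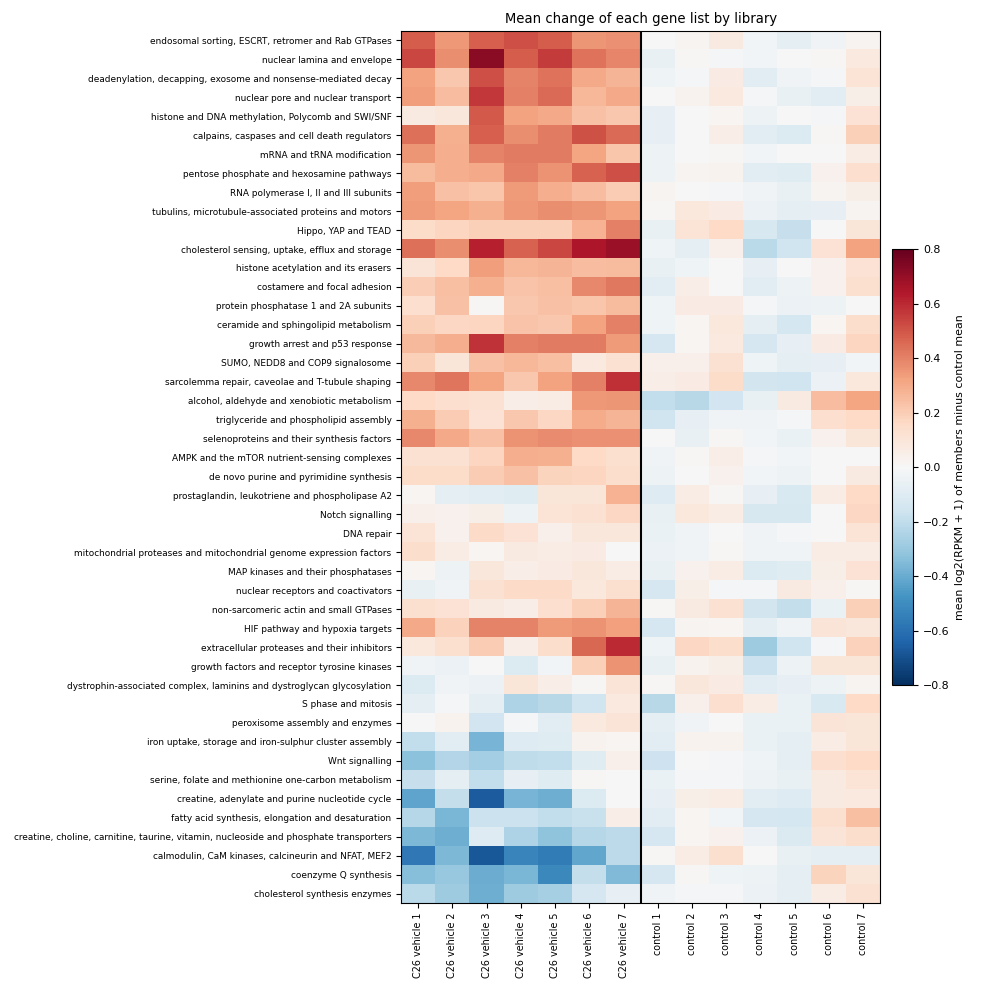
Rows are the 46 gene lists and columns the 7 C26 vehicle libraries (left) and 7 control libraries (right), coloured by how far the list's mean log2(RPKM + 1) lay from its mean in controls. Controls lie nearer to 0 than most C26 vehicle libraries, and the rises of the endosomal, nuclear and RNA lists and the falls of the calmodulin and coenzyme Q lists appear in all 7 C26 vehicle libraries, and C26 vehicle 3 is the strongest in several rows.

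Calcium and calmodulin signalling had the highest share of falls among the signalling lists, with 14 of 24 tested members lower and 6 higher (median -0.29, and rescaled, 14 and 3, then 16 and 2). Of the 24 tested members 5 fell by at least 2-fold, against 4.7% of all tested genes. Calm3, a calmodulin gene (chr7:16915379-16924114, minus strand), had 12.0, 32.2 and 71.9 RPKM in C26 vehicle libraries and 141, 155 and 181 RPKM in control libraries. C26 vehicle 3 was far below the others and all C26 vehicle libraries were below the lowest control, with a log2 change of -2.06 ± 0.29 (adjusted p = 4.4e-06). Calm2 fell by 1.86 ± 0.18. Mef2c, the MEF2 factor that activates muscle genes (chr13:83504034-83667080, plus strand), had 5.22, 15.4 and 33.6 RPKM in C26 vehicle libraries and 59.5, 71.6 and 79.8 RPKM in control libraries, with a log2 change of -2.35 ± 0.28 (adjusted p = 3.6e-07). Pvalb, which encodes parvalbumin, the calcium buffer of fast fibres, had 772, 1851 and 2970.3 RPKM in C26 vehicle libraries and 6372, 9213 and 10729 RPKM in control libraries, with a log2 change of -2.30 ± 0.38 (adjusted p = 2.1e-05). Nfatc1, the calcineurin-dependent factor linked to slow fibres, rose by 0.45 ± 0.09. Pvalb is also 1 of the 12 fibre markers given above, of which 6 were lower and 0 higher. After quantile normalisation 4 of them were higher and 3 lower. The part of the fibre markers in this list was not tested.

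AMPK and mTOR complexes gave 20 of 39 tested members higher and 11 lower (rescaled, 15 and 15, then 15 and 14). Of the 39 tested members 5 rose and 2 fell by at least 2-fold, against 8.91% and 4.7% of all tested genes. Prkag3, the regulatory AMPK subunit of fast glycolytic fibres (chr1:74738922-74749221, minus strand), had 3.05, 4.00 and 8.53 RPKM in C26 vehicle libraries and 41.0, 56.7 and 74.8 RPKM in control libraries. All 7 C26 vehicle libraries were far below the controls, with a log2 change of -3.32 ± 0.22 (adjusted p = 1.9e-10). Eif4ebp1, the translation repressor that mTORC1 phosphorylates (chr8:27260329-27276674, plus strand), had 159, 321 and 412 RPKM in C26 vehicle libraries and 13.8, 17.6 and 22.7 RPKM in control libraries, with a log2 change of 3.98 ± 0.17 (adjusted p = 2.7e-13). Its lowest C26 vehicle library was number 7. Ddit4, an inducible inhibitor of mTORC1, had 106, 246 and 499 RPKM in C26 vehicle libraries and 4.74, 13.7 and 34.6 RPKM in control libraries, with a log2 change of 3.99 ± 0.38 (adjusted p = 2.3e-08). The kinase itself and its activator also rose, Mtor by 1.08 ± 0.13 and Rheb by 1.13 ± 0.12, and Cab39 rose by 1.10 ± 0.16, a scaffold of the AMPK-activating kinase LKB1, while the mTOR-binding inhibitor gene Deptor fell by 1.25 ± 0.15.

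Growth factor signalling was mixed, with 9 of 26 tested members higher and 7 lower (rescaled, 7 and 7, then 7 and 6). Igfbp5, an insulin-like growth factor binding protein of muscle and matrix, had 4.13, 7.16 and 27.6 RPKM in C26 vehicle libraries and 84.4, 98.6 and 112 RPKM in control libraries. C26 vehicle 7 was nearest to the controls and C26 vehicle 3 the lowest, with a log2 change of -3.15 ± 0.31 (adjusted p = 3.4e-08). Igfbp4, of the same family, rose by 1.34 ± 0.18, and Fgf2 rose by 1.03 ± 0.12. In Wnt signalling 10 of 29 tested members were lower and 7 higher (rescaled, 15 and 6, then 13 and 7). Frzb, a secreted Wnt-binding protein, had 0.253, 0.668 and 1.80 RPKM in C26 vehicle libraries and 7.56, 10.1 and 12.5 RPKM in control libraries, with a log2 change of -2.64 ± 0.18 (adjusted p = 1.7e-10). Dkk3, of the Dickkopf family, fell by 1.81 ± 0.24, the ligand gene Wnt5a fell by 0.95 ± 0.09 and the carrier that exports Wnt ligands, Wls, fell by 0.74 ± 0.13, while the ligand acyltransferase gene Porcn rose by 0.70 ± 0.10 and the kinase gene Gsk3b rose by 0.83 ± 0.21. The mean of the tendon-cell markers was below every control in the same 7 libraries. That of the fibro-adipogenic markers was not, at 0.06 in C26 vehicle 6 and 0.55 in C26 vehicle 7 relative to the control mean. The part of these cells in Igfbp5, Frzb and Dkk3 was not tested.

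Of MAP kinase genes 15 of 44 tested members were higher and 9 lower (rescaled, 9 and 16, then 10 and 19). Map2k6, an activator of p38 (chr11:110399122-110525522, plus strand), had 0.736, 0.947 and 1.17 RPKM in C26 vehicle libraries and 9.23, 10.2 and 10.9 RPKM in control libraries, and this was a uniform fall over the 7 libraries, with a log2 change of -2.50 ± 0.07 (adjusted p = 9.3e-16). Map3k6, an upstream kinase of the stress pathways, had 13, 19.3 and 54.6 RPKM in C26 vehicle libraries and 0.634, 1.57 and 4.91 RPKM in control libraries. C26 vehicle 3 was far above the other six, and without any single library the change stayed within 2.83 to 3.26, and with all libraries it was 3.06 ± 0.28 (adjusted p = 1.1e-08). Dusp10, a phosphatase of p38 and JNK, fell by 2.31 ± 0.21, and Map3k14, the kinase of the alternative NF-kappaB route, rose by 1.22 ± 0.15. In the Hippo list 11 of 23 tested members were higher and 2 lower (rescaled, 5 and 7, then 6 and 6). Ankrd1, a target of YAP and a titin-associated stress protein, had 12.7, 17.6 and 48.6 RPKM in C26 vehicle libraries and 1.05, 1.49 and 8.55 RPKM in control libraries, with a log2 change of 2.71 ± 0.39 (adjusted p = 4.7e-06). The coactivator gene Vgll2 rose by 1.17 ± 0.20, and of the angiomotins Amot rose by 0.71 ± 0.15 and Amotl1 fell by 0.86 ± 0.13. Notch genes gave 12 of 26 tested members higher and 8 lower (rescaled, 7 and 8, then 8 and 8).

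Nuclear receptor genes gave 12 of 30 tested members higher and 8 lower (rescaled, 8 and 12, then 10 and 11). Rxrg, the retinoid X receptor of muscle, had 2.26, 6.56 and 11.1 RPKM in C26 vehicle libraries and 22.9, 28.7 and 33.4 RPKM in control libraries, with a log2 change of -2.0 ± 0.24 (adjusted p = 5.2e-07). The clock-linked receptor gene Rora rose by 1.78 ± 0.22, and the fatty acid receptor gene Ppard rose by 0.70 ± 0.11. In the hypoxia list 9 of 22 tested members were higher and 7 lower (rescaled, 8 and 9, then 8 and 10), with 5 rises of at least 2-fold (8.91% of all genes). Arnt, the shared partner of the hypoxia factors, rose by 1.39 ± 0.10, Egln3, a prolyl hydroxylase that they induce, rose by 1.91 ± 0.39, and Hif3a rose by 1.11 ± 0.13, while Egln1, the main oxygen-sensing hydroxylase, fell by 0.95 ± 0.10 and the hypoxia-induced mitochondrial gene Higd1a fell by 0.84 ± 0.13. Protein phosphatase subunits gave 17 of 33 tested members higher and 6 lower (rescaled, 8 and 8, then 7 and 11). Ppp1r15a, which encodes GADD34, the stress-induced subunit that reverses phosphorylation of the initiation factor eIF2, had 17.2, 40.2 and 80.7 RPKM in C26 vehicle libraries and 6.06, 7.13 and 7.66 RPKM in control libraries, with a log2 change of 2.28 ± 0.23 (adjusted p = 5.3e-08).

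Growth arrest genes gave 18 of 33 tested members higher and 8 lower (median 0.36, and rescaled, 14 and 10, then 13 and 9), with 9 rises of at least 2-fold (8.91% of all genes). Cdkn1a, the p21 inhibitor of cyclin-dependent kinases (chr17:29090976-29100727, plus strand), had 31.3, 82.9 and 123 RPKM in C26 vehicle libraries and 3.07, 5.00 and 10 RPKM in control libraries. C26 vehicle 5 was the highest and C26 vehicle 7 the lowest, with a log2 change of 3.48 ± 0.33 (adjusted p = 2.1e-08). Gadd45a, a stress gene known from denervated muscle, had 49.9, 71.7 and 107 RPKM in C26 vehicle libraries and 6.51, 13.3 and 15.7 RPKM in control libraries, with a log2 change of 2.55 ± 0.20 (adjusted p = 1.2e-09). Sesn1, a sestrin, had 11.9, 27.8 and 138 RPKM in C26 vehicle libraries and 3.39, 5.09 and 6.39 RPKM in control libraries. C26 vehicle 3 stood far above the others, and the change without any single library stayed within 2.20 to 2.77, and with all libraries it was 2.53 ± 0.39 (adjusted p = 1.0e-05). Trp53inp2, which encodes a nuclear and autophagosome protein, fell by 2.01 ± 0.12 and the p53 target gene Ccng1 fell by 1.5 ± 0.17. Trp53 itself, looked at after its values were seen, rose by 0.42 ± 0.11 as deposited and did not pass under either other scaling (adjusted p = 0.069 and 0.16).

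Of the calpain, caspase and cell death genes 14 of 26 tested members were higher and 1 lower (rescaled, 12 and 4, then 12 and 2). The rises included Fas, a death receptor (1.65 ± 0.16), the pore-forming Bak1 (1.11 ± 0.13), the survival protein Mcl1 (1.15 ± 0.11) and calpastatin, Cast, the inhibitor of calpains (0.93 ± 0.12), so both arms of this list were among them. DNA repair genes gave 15 of 33 tested members higher and 10 lower (rescaled, 12 and 14, then 11 and 13). The damage-recognition gene Xpa rose by 1.76 ± 0.20 and Ddb1 rose by 1.23 ± 0.13, while Xrcc5, the Ku80 subunit of end joining, fell by 1.80 ± 0.31. Of 21 S phase and mitosis genes 7 were tested, 3 of them higher and 3 lower, and the others were below the level filter or are not analysed here. Pcna rose by 0.69 ± 0.13 and Mcm7 by 0.60 ± 0.16, and Mcm2 fell by 0.83 ± 0.10.

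Extracellular proteases and inhibitors gave 10 of 25 tested members higher and 8 lower (rescaled, 10 and 9, then 10 and 9). Htra3 rose by 1.61 ± 0.15 while its relative Htra1 fell by 0.85 ± 0.15, and Adamts9 rose by 1.33 ± 0.14 while the membrane-type metalloproteinase gene Mmp15 fell by 1.43 ± 0.17. In the eicosanoid list 6 of 13 tested members were higher and 4 lower (rescaled, 6 and 5, then 6 and 5). Pla2g7, the platelet-activating factor hydrolase, had 3.44, 5.58 and 7.01 RPKM in C26 vehicle libraries and 17.7, 21.3 and 29.7 RPKM in control libraries, with a log2 change of -1.96 ± 0.15 (adjusted p = 1.3e-09). Ptges3, a prostaglandin synthase that is also a co-chaperone, rose by 1.47 ± 0.13.

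Over all genes, the 25 largest stable falls were led by Nmrk2, the nicotinamide riboside kinase of muscle, with 0.570, 2.68 and 6.12 RPKM in C26 vehicle libraries and 85.0, 134 and 242 RPKM in control libraries and a log2 change of -5.26 ± 0.32 (adjusted p = 5.2e-11). Behind it came genes of the fibre itself. Mylk4, a myosin light chain kinase gene, fell by 4.88 ± 0.43, the cardiac-type actin gene Actc1 fell by 4.52 ± 0.39, Casq1, the calcium store protein of the reticulum, fell by 4.49 ± 0.46, and Ky, of the Z-disc, fell by 4.21 ± 0.38. Ostn, which encodes the secreted osteocrin, fell by 4.12 ± 0.21, and the tendon-cell marker Tnmd (tenomodulin) fell by 3.05 ± 0.23. The clock output factor gene Dbp fell by 3.68 ± 0.29. The polyamine synthesis gene Amd1 fell by 3.12 ± 0.20 and its near-identical pseudogene Amd-ps4 fell by 3.21 ± 0.19, so that reads of this pair could be split between them. Ank1, whose small muscle form anchors the reticulum to the myofibril, fell by 3.00 ± 0.24, and the potassium channel gene Kcng4 fell by 3.52 ± 0.24.

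The largest of the 25 largest stable rises was that of Mt2, a metallothionein that binds zinc and copper. Mt2 had 2348, 3379 and 4323 RPKM in C26 vehicle libraries and 3.64, 13.1 and 30.8 RPKM in control libraries, with a log2 change of 8.07 ± 0.30 (adjusted p = 2.4e-14), though 73.5% of its exon bases overlap a gene on the other strand. Lcn2, which encodes the iron-scavenging lipocalin 2, followed at 7.59 ± 0.49, and the metallothionein gene Mt1 at 7.38 ± 0.23. Slc39a14, a zinc and iron importer of the plasma membrane, had 19.6, 104 and 151 RPKM in C26 vehicle libraries and 2.45, 2.96 and 3.23 RPKM in control libraries, with a log2 change of 4.36 ± 0.36 (adjusted p = 3.4e-09). Less familiar genes stood beside the known wasting and inflammation genes of that list. The scaffold gene Cnksr1 rose by 4.31 ± 0.20, with 152, 418 and 556 RPKM in C26 vehicle libraries and 14.2, 17.3 and 19.6 RPKM in control libraries, Mustn1, a small nuclear protein of muscle and bone, rose by 4.34 ± 0.21, and Retreg1, a receptor for autophagy of the endoplasmic reticulum, rose by 3.79 ± 0.25. Acss1, which encodes the mitochondrial acetyl-CoA synthetase, rose by 3.23 ± 0.27, Mknk2, a kinase of the cap-binding initiation factor, rose by 3.11 ± 0.18, and the lipocalin gene Apod rose by 3.45 ± 0.19.

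The series title names CREB1, a factor that binds the cyclic AMP response element (CRE), the palindrome TGACGTCA, which was searched on both strands. Promoter windows of 250 bases before to 50 after the start, from RefSeq on GRCm38.p6, were matched for 8568 of the 11141 tested genes, or 76.9%. Below a coverage of 80% a comparison of shares between called and other genes is void and is not read. The full site was in 3.69% of the matched genes. It was also found in 8 named genes, shown here because they carry the sequence that the title's factor binds. Not every named gene was searched, so the 8 are examples and not a count over all named genes. The site stands in capitals with 11 bases on each side, 5′ to 3′ on the strand of the gene.
Arnt: ttgcatttcacTGACGTCAatttggttatg
Pex13: acgccttggccTGACGTCAggcgtgggcgg
Ppp1r15a: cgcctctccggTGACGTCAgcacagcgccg
Ppp2ca: tgacgctggcgTGACGTCAccacgccgggc
Retreg1: gcggccaggccTGACGTCAcaaggcaccca
Sphk2: tggtgcacgggTGACGTCAcatgagcgcga
Trmt61a: ctgcgttggttTGACGTCAtcaaaaagcac
Trp53inp2: gggcccctttgTGACGTCAcaatcagctgt
The windows lie at chr3:95434140-95434169 (plus strand) for Arnt, chr11:23665948-23665977 (minus strand) for Pex13, chr7:45526262-45526291 (minus strand) for Ppp1r15a, chr11:52098787-52098816 (plus strand) for Ppp2ca, chr15:25843139-25843168 (plus strand) for Retreg1, chr7:45717981-45718010 (minus strand) for Sphk2, chr12:111678074-111678103 (plus strand) for Trmt61a and chr2:155381804-155381833 (plus strand) for Trp53inp2. In the first 7 of these genes the level rose, from Ppp2ca (0.74 ± 0.10, with 41.3% of its exon bases under a gene on the other strand) to Retreg1 (3.79 ± 0.25), and in Trp53inp2 it fell by 2.01 ± 0.12. All 8 are stable calls by the naming rule, so that each had to rise or fall. Over all tested genes 23.9% were stable calls higher and 11% stable calls lower. The directions of these few chosen genes are therefore not read as a result about the site. Sites nearest to the start were those of Sphk2, Ppp1r15a and Trmt61a, which began at base 4, -12 and -20 relative to it, and the farthest was that of Arnt, at -239. A match is a description of the letters and not a site shown to be bound.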

How the data were processed

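RNA from snap-frozen gastrocnemius was enriched for polyA and made into stranded libraries, per the labels' protocols. Alignment (STAR 2.5.3a, mm10) and gene counting (featureCounts 1.6.4) are named in the submitters' processing notes. Neither the annotation release nor the strand setting, RPKM tool or gene filter is given in the sources used here. The authors' deposited values are RPKM for 13067 genes.

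Values were analysed as log2(RPKM + 1), with a pseudocount of 1, which understates changes of low genes. Genes with at least 1 RPKM in at least 5 of 19 libraries (11141) were fitted in limma 3.58.1 (R 4.3.3) as a model of 3 groups with trended, robust variance moderation, two-sided, with Benjamini-Hochberg adjustment over all genes. RPKM is no count, so no count model was used. The fit was tested on simulated data. Library sizes were estimated from the spacing of low values, of which 100% of 417 were whole reads within 0.05 read. Depth sets the precision of low genes and these sizes cover 18.3 to 45.9 M reads.

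Named genes were the 25 largest rises and 25 largest falls among stable calls over all genes and, per list, up to 4 stable calls in the majority and 2 in the other direction, with predicted genes left out. A stable call held without any single library and under both other scalings, with groups that did not overlap. 4 regulators were added after their values were seen. Members and lists were chosen with earlier results of these data known. Lists are given by counts and medians only. Alternatives were 2 scalings, a pseudocount of 0.1, other filters, the 14 libraries alone, plain variance moderation, a replicate block and leaving out each library. Gene positions are from the GRCm38 annotation, and 280 of 282 named genes matched. Some genes that the rule names are not reported here.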

Additional observations from a re-analysis of the deposited data

Results flagged for a closer look

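In 25 of 564 groups of 7 libraries examined over the 282 named genes, the highest or lowest library lay far from the other six, with a gap to the nearest of them above the share of the group's range that Dixon's test allows at the 95% level. Chance gives about 1 in 20 groups. Values are RPKM in that library, with the range of the other six behind it.

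Of the C26 vehicle libraries, number 3 was the outlying one in most cases. It was high for Adam10 (11.5 against 6.57 to 8.34), Arnt (49.9 against 29.1 to 36.0), Cds2 (16.9 against 11.9 to 13.6), Hacd3 (13.7 against 5.90 to 7.78), Map3k6 (54.6 against 13 to 22.9), Mcm7 (9.49 against 3.67 to 4.73), Nfatc1 (12.9 against 7.53 to 9.19) and Wasf2 (18.7 against 10.5 to 13.4). It was low for Dkk3 (2.62 against 3.29 to 3.68), Nfs1 (22.4 against 31.6 to 40.7), Nr1h3 (14.9 against 20.6 to 23.0) and Phb (12.1 against 17.3 to 22.2). C26 vehicle 7 was high for Hsd17b7 (1.32 against 0.704 to 0.842) and Wnt5a (0.470 against 0.119 to 0.210).

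Among controls the high values were those of Ctxn3 (7.13 against 2.08 to 3.64, control 3), Hif3a (0.473 against 0.105 to 0.208, control 5), Ppp2ca (21.3 against 17.2 to 18.8, control 3) and Srebf2 (5.36 against 3.30 to 4.07, control 7). The low values were those of Anxa6 (85.8 against 93.1 to 98.2, control 5), Ddb1 (52.8 against 54.6 to 55.6, control 1), H6pd (7.98 against 9.35 to 10.3, control 3), Mrtfa (4.65 against 6.90 to 8.12, control 5), Ormdl1 (2.29 against 3.29 to 3.44, control 5), Rab4a (8.61 against 10.4 to 11.1, control 1) and Xpa (2.70 against 3.35 to 3.74, control 3). Except for Srebf2, which was not called, each of these genes kept its call and direction without the library in question. The naming rule had already required this, so it says nothing further about these libraries.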

How the results depend on the processing

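The count of higher genes was 4822 as reported, 3745 after median-of-ratios scaling and 3841 after quantile normalisation, and ran from 3520 to 5085 over the other settings. The count of lower genes was 2646, 3658 and 3602, but fell to 1574 with a minimum of 5 RPKM, where only 6861 genes were tested. The count lower by at least 2-fold was 524, against 842 with a pseudocount of 0.1, which compresses low genes less. Leaving out 1 library at a time gave 4597 to 4894 higher and 2483 to 2816 lower genes, and 907 to 1096 higher and 458 to 598 lower by at least 2-fold. No called gene among those named changed sign. For stable calls the naming rule had already required this without any single library and under both scalings. It was thus open only for the other settings and for the added regulators. Counts of list members moved by more than 1.5 times in 109 of the combinations of list, direction and setting, and did not in 1915. Of the added regulators, Srebf2 passed under 6 alternatives, Trp53 lost its call under both scalings and Crebbp under median-of-ratios scaling. The replicate block gave 4837 higher and 2693 lower genes and changed no call of a named gene other than Srebf2. The labels give the numbers no shared litter, batch or day. Deviations of same-numbered C26 vehicle and control libraries correlated at -0.04 to 0.30, above 0.1 in 4 of 7 pairs, and 6 of 14 libraries correlated best with their own number. This does not pair all samples, but it does not show that the numbers are unrelated either. Whether same-numbered libraries share something was not tested. The first 5 letters of the CRE in place of all 8 were in 36.5% of matched promoters. Depth limits genes near 1 RPKM, whose changes the pseudocount compresses.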
